A study of Macaca mulatta with 23 samples.

Results

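DNA methylation of 6 genes for the alpha-1 subunit of voltage-gated calcium channels (CACNA1A, CACNA1B, CACNA1C, CACNA1G, CACNA1H and CACNA1I) was described in 23 young rhesus monkeys, in tissue labelled as the amygdala's central nucleus. The members were all measured positions inside a fixed hg19 window around each gene, 1046 of the 444312 positions of the table. The windows were CACNA1A at chromosome 19, 13314 to 13620 kb, CACNA1B at chromosome 9, 140769 to 141022 kb, and CACNA1C at chromosome 12, 2077 to 2810 kb. Those of the other genes were CACNA1G at chromosome 17, 48635 to 48708 kb, CACNA1H at chromosome 16, 1200 to 1275 kb, and CACNA1I at chromosome 22, 39963 to 40089 kb. They held 344 positions for CACNA1A, 175 for CACNA1B, 208 for CACNA1C, 100 for CACNA1G, 28 for CACNA1H and 191 for CACNA1I. No hg19 gene annotation was used here, so gene starts were placed 3 kb inside each window, and exons, introns and untranslated regions are not assigned.

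Reduced representation bisulfite sequencing, which reads cytosine methylation in CpG-rich DNA cut with MspI, was run on 1 library per monkey. The question set by the series was how methylation varies with anxious temperament, a continuous score of anxious behaviour in young primates, with age as covariate. All animals were rhesus monkeys (Macaca mulatta), with no treatment named in the labels. The score ran from -1.48 to 1.43 and age from 1.10 to 2.13 years, with 11 left and 12 right hemispheres sampled, 1 side per animal. Monkeys are named by hemisphere and number. The tissue label could not be checked against marker genes, because the table holds methylation and no expression.

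Voltage-gated calcium channels open when the membrane depolarizes and let calcium into the neuron, where it drives transmitter release, firing patterns and gene expression. The alpha-1 subunit forms the pore and the voltage sensor, and alpha-2-delta and beta subunits set its trafficking and gating. CACNA1A (P/Q type) and CACNA1B (N type) serve transmitter release, CACNA1C (L type, Cav1.2) couples activity to transcription, and CACNA1G, CACNA1H and CACNA1I encode the T-type channels that open at low voltage and support burst firing. In vertebrate genomes CpG-rich promoters are usually unmethylated, while the bodies of transcribed genes are mostly methylated.

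Depth per position is unknown, since the table gives fractions without read counts, and no interval for a single level could be computed. Left 3 lacked a value at 61.1% of the member positions, right 9 at 35.5% and left 4 at 34.4%. The median library lacked 2.29%. Left 3 and right 9 also stood apart in their values, so results were repeated without them. Left 4 was kept in those repeats, although it was the highest library of the CACNA1B body at 59.5%. Each monkey was also left out in turn. Because of the missing values, levels of a zone or run were centred on the mean of each position before averaging. This lessens the shift that missing positions give a plain mean but does not remove it, and a monkey with few positions of a run can come out extreme or even below 0%. A position here is a cytosine, and in some runs positions come in adjacent pairs 1 bp apart, which share reads or a CpG and are not independent. Whether such pairs are the strands of a CpG could not be checked without sequence. Reads were from macaque DNA placed on human coordinates, and a cytosine that is another base in the macaque can appear unmethylated.

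Promoter zones (3 kb upstream to 2 kb downstream of the start) were close to unmethylated in 4 of the 5 genes that had positions there. The measured body positions averaged higher in each of these 5 genes, in CACNA1I by 6.15 points over only 6 promoter positions. The CACNA1A promoter zone (54 positions) had a level of 1.35% ± 0.722 (SD, n = 23), from 0.685% in left 3 through a median of 1.06% to 3.93% in right 9. The CACNA1C zone (66 positions, in a run 0.3 kb past the main start and 82.3 kb past the upstream start) had 1.22% ± 0.671 (SD, n = 23), and the CACNA1G zone (16 positions) 1.32% ± 0.811 (SD, n = 20). The CACNA1B promoter zone (55 positions) averaged 5.88% ± 1.21 (SD, n = 23), and it includes a run past the island, as described for that gene. Right 9 was the highest library in the promoter zones of CACNA1A, CACNA1C and CACNA1G. CACNA1I differed in kind: its promoter zone held 6 positions, 3 under 20% and 3 over 80%, which gave 47.9% ± 1.45 (SD, n = 23) and says little about an island. The 3 lowest zones did not differ beyond their spread: CACNA1A minus CACNA1G was 0.0875 ± 0.629 points and CACNA1G minus CACNA1C 0.0691 ± 0.577 (SD, n = 20, sign-flip permutation p = 0.540 and 0.604). CACNA1H had no measured position in its promoter zone, and CACNA1C none at its upstream start.

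The paired difference of body minus promoter was 70.7 ± 1.16 percentage points in CACNA1A (SD, n = 23) and 61.2 ± 1.95 in CACNA1C (SD, n = 23). It was 51.5 ± 2.85 points in CACNA1G (SD, n = 20) and 38.1 ± 5.58 in CACNA1B (SD, n = 23). In these 4 genes the body was higher in every monkey with both values. In CACNA1I the difference was 6.15 ± 2.64 points (SD, n = 23), with the body higher in 22 of 23 monkeys. This CACNA1I difference rests on 6 promoter positions, 3 under 20% and 3 over 80%, so it depends on which positions were captured. Each of the 5 sign-flip permutation tests (2-sided, 100000 resamples) gave p = 1e-05, the smallest that number of resamples can give. These tests measure the spread over monkeys at the measured positions, not the spread over positions.

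**Figure D1:**
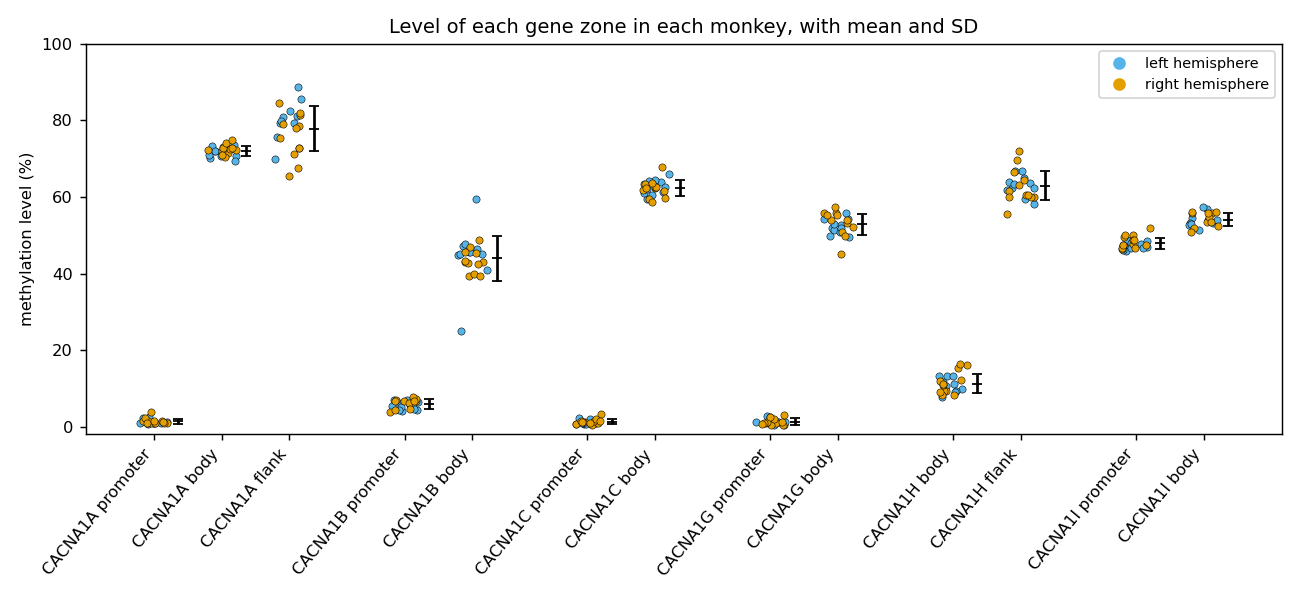
Methylation level (%) of the promoter zone, body and 3′ flank of each gene, 1 point per monkey (blue left hemisphere, orange right), with the mean and SD as the black bar. Promoter zones of CACNA1A, CACNA1C and CACNA1G lie near 1%, whereas the CACNA1B body spreads from 24.9% in left 3 to 59.5% in left 4.

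Gene-body levels, from high to low, were in the order CACNA1A, CACNA1C, CACNA1I, CACNA1G, CACNA1B and CACNA1H. The means were 72% ± 1.35 for CACNA1A, 62.4% ± 2.18 for CACNA1C and 54.1% ± 1.76 for CACNA1I (SD, n = 23). CACNA1G had 52.8% ± 2.77 and CACNA1B 44.0% ± 5.86 (SD, n = 23), and CACNA1H, with 12 body positions, 11.2% ± 2.51 (SD, n = 22). Neighbours in this order differed by 8.31 to 33.7 points except for CACNA1I and CACNA1G. Those 2 differed by 1.27 ± 2.58 points (SD, n = 23), with CACNA1I higher in 17 of 23 monkeys (permutation p = 0.0287), and the order turned with the plain mean of the values present, at -0.173 points (permutation p = 0.893). The other 4 neighbour tests gave p = 1e-05, the smallest possible, by the same permutation test. These levels average different CpGs in each gene, so they order the measured positions and not the whole bodies.

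Of all 1046 member positions, 37% averaged under 20% and 38% over 80%, against 60.9% and 21.1% of the table. Of the 822 body positions of the 6 genes, 23.7% averaged under 20%, 30.2% between 20% and 80%, and 46.1% over 80%. Of the 319 body positions of other channel subunit genes, 56.7% were under 20% and 18.2% over 80%. CACNB3 alone gave 73 of these 319, with a mean of 5.49% and no measured position in its promoter zone. These shares are descriptions, since positions of a fragment share reads and the genes differ in which fragments were captured.

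**Figure D2:**
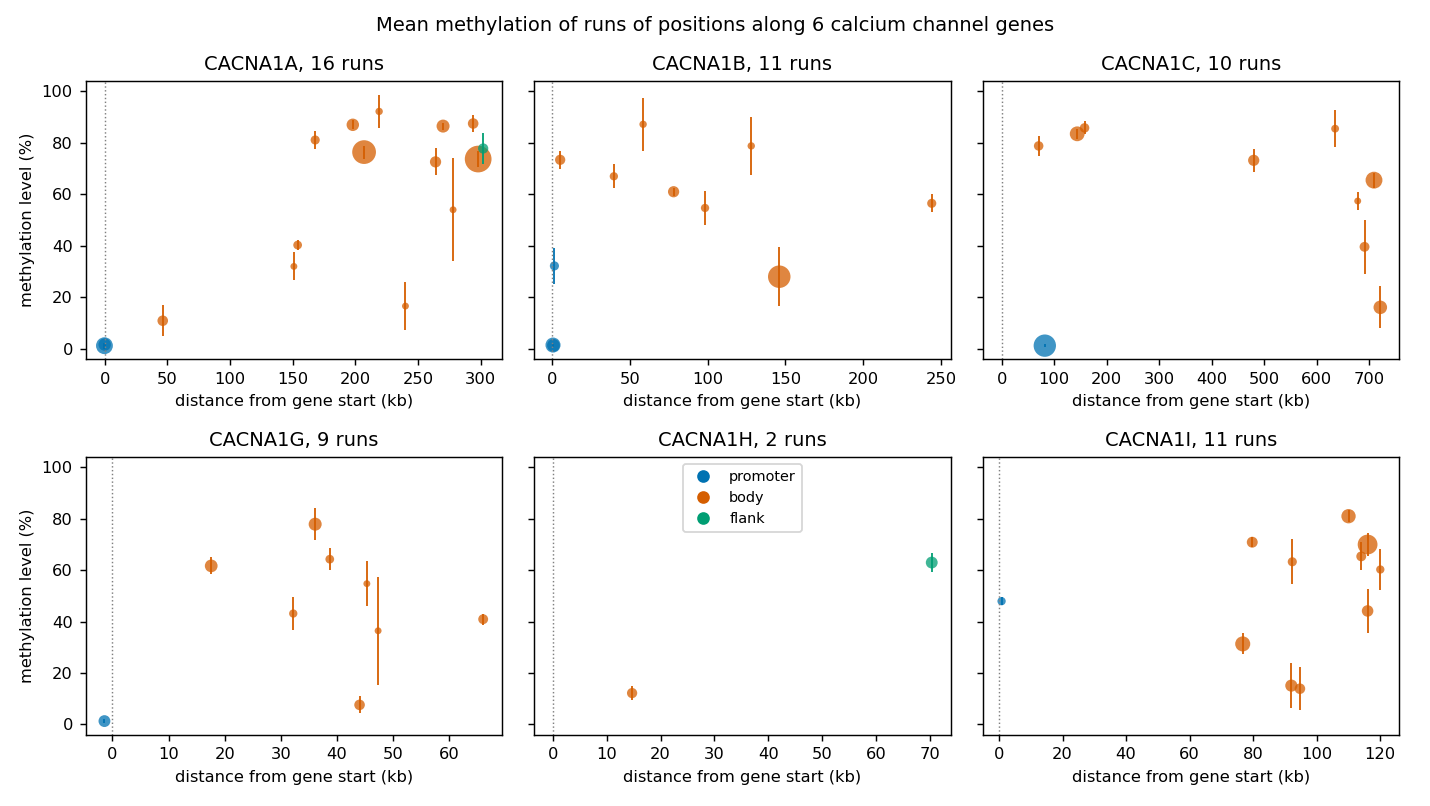
Mean methylation level (%) of each of the 59 runs against its distance from the gene start (kb), with SD over monkeys as the bar and the number of positions as the point size; blue is promoter zone, orange body and green 3′ flank, and the start in the CACNA1C panel is the upstream one. Body runs range from 7.62% in CACNA1G to 92.2% in CACNA1A, and 7 body runs lie under 20%.

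Positions were grouped into runs of at least 3 with gaps of at most 200 bp, which gave 59 member runs: 8 in promoter zones, 49 in bodies and 2 in the 3′ flanks. Of the 49 body runs, 7 averaged under 20%, 32 between 20% and 80%, and 10 over 80%. An intermediate run mean often covered positions of differing level. Of the 32 intermediate body runs, 26 held some position under 20% and some position over 80%, in some runs only a few. Only 8 had most of their positions between 20% and 80%. These counts overlap, and the share of a run mean that comes from a mixture was not measured. Isolated low positions were part of this: of 631 member positions whose run mates averaged at least 40%, 62 (9.83%) were at 5% or less, against 13.4% of such positions in the whole table. Leaving those positions out, a choice made after the values were seen, raised the body mean of CACNA1C from 62.4% to 70.7% and that of CACNA1G from 52.8% to 59.0%. It placed CACNA1G above CACNA1I, whose mean became 55.5%. Whether these cytosines are CpGs in the macaque was not tested.

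CACNA1A, the pore subunit of P/Q-type channels at central synapses, had 16 runs, and its body level had the smallest SD over monkeys of the 6 genes, 1.35 points, while its body runs ranged from 10.9% to 92.2%. Its runs with the most positions lay far from the start. One run of 96 positions at chr19:13318026-13318654, 298 kb from the start, had 73.7% ± 3.23 (SD, n = 23), from 68.0% in right 12 through a median of 73.9% to 79.8% in right 10. A run of 75 positions at chr19:13409730-13410051 had 76.4% ± 2.52 (SD, n = 23). In both runs every library lay within about 12 points, so the body level varied little between monkeys. Of its low runs, the one with more positions was at chr19:13570458-13570565, 46.4 kb from the start, with 12 positions at 10.9% ± 6.02 (SD, n = 23). In that 12-position run right 9 had 34.8% and the next highest library 18.8%. Without left 3 and right 9 that run had a mean of 10.0% and an SD of 2.93 points over 21 monkeys. Much of its spread thus belonged to those libraries. The other low run, 3 positions at chr19:13376877-13376909, had 16.6% ± 9.23 (SD, n = 19). The promoter runs, of 36 and 18 positions at chr19:13617130-13617243 and chr19:13616812-13616913, were at 1.20% and 1.64%. The widest spread, an SD of 20.0 points, came from a run of 3 positions at chr19:13338959-13339017, whose position means ran from 4.76% to 99.2%. Right 1 had a centred level of -4.09% there, which is no possible methylation level, so the spread of this run is not read further.

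CACNA1B, the pore subunit of N-type channels of presynaptic terminals, showed an edge of its promoter island between 0.9 kb and 1.5 kb after the start. Runs of 28 and 19 positions, 0.6 kb and 0.9 kb after the start, were at 1.45% ± 0.518 and 1.33% ± 0.657 (SD, n = 23). The next run, 8 positions at chr9:140773483-140773606 and 1.5 kb from the start, was at 32.2% ± 7.14 (SD, n = 22), from 21.5% in right 3 through a median of 32.4% to 44.1% in right 5. No library of this run reached down to the island's level. At 5.2 kb from the start a run of 11 positions was at 73.4% ± 3.49 (SD, n = 18). The 4 runs thus pass from about 1% to over 70% methylation along a few kilobases.

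The body run with the most positions in CACNA1B held 67 positions at chr9:140917458-140917863, 146 kb from the start, and averaged 28% ± 11.5 (SD, n = 23). It was not uniform. Its first 42 positions, over 181 bp, averaged 17.8% ± 10.1 (SD, n = 21) and its last 25, from 205 to 405 bp, 43.8% ± 10.5 (SD, n = 22). The later stretch was higher in 20 of 20 monkeys with both, by 28.5 ± 9.22 points (SD, n = 20). The split was chosen after the values were seen and was not tested. The first stretch has 23 steps of 1 bp between listed positions and the second 0, so the spacing of the listed positions changes where the level changes. Its part in the result was not tested. Left 3, with 8 of the 67 positions, had 2.04% (plain mean 4.12%), and left 4, with 15, had 67.9% (plain mean 59.4%). The second lowest library, right 11, had 19.0%. Right 9, the second highest, had 41.7% over 17 positions, but its plain mean was 66.9%, above that of left 4. Next came right 4, with 42 positions, at 35.8% (plain mean 41.5%). Left 3 and left 4 also set the range of the CACNA1B body as a whole.

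**Figure D3:**
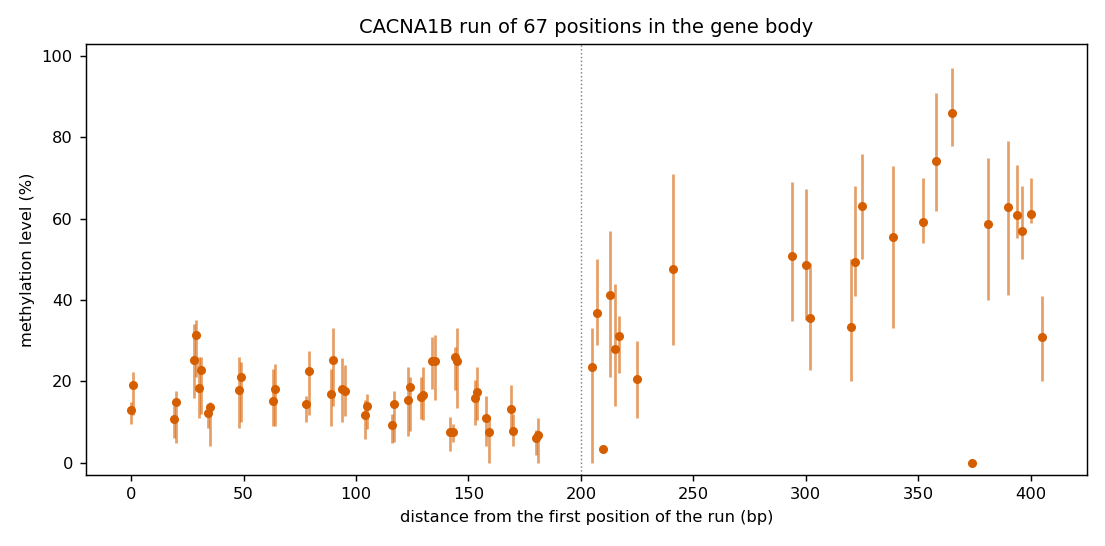
Mean methylation level (%) of each of the 67 positions of the CACNA1B body run against distance from its first position (bp), with the range from the 25th to the 75th percentile over monkeys as the bar and a dotted line between the stretches. Position means run from 5.95% to 31.3% in the first stretch and from 0% to 85.9% in the second.

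CACNA1C, the pore of the Cav1.2 L-type channel, had a single promoter run: 66 positions at chr12:2162348-2163111 and 1.22%, with a highest library of 3.30% (right 9). A run upstream of it, 9 positions at chr12:2150603-2150737, which lies 70.6 kb after the upstream start, was at 78.8% ± 3.77 (SD, n = 22). The next run downstream, 27 positions at chr12:2224477-2224681, was at 83.5% ± 1.96 (SD, n = 21). These methylated neighbours lay at -11.4 kb and 62.5 kb from the main start, with no run but the island's between them. Levels nearer the island are therefore not known from runs. The body run with the most positions, 36 at chr12:2788616-2788925, had 65.5% ± 2.87 (SD, n = 23). Toward the 3′ end levels alternated, with 39.6% at 691 kb, 65.5% at 709 kb and a low run at 721 kb. That low run, 22 positions at chr12:2800665-2800838, averaged 16.1% ± 8.20 (SD, n = 22), from 2.91% in left 4 through a median of 14.6% to 38.6% in right 9. The run with the largest SD was the 39.6% one, 10 positions at chr12:2771130-2771264, with an SD of 10.6 points (n = 22) and levels from 20.2% to 57.7%. All of its positions averaged between 0.0455% and 70.9%, and 7 of the 10 lay between 20% and 80%.

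CACNA1G (Cav3.1), a T-type gene, had 9 runs. Its promoter run, 16 positions at chr17:48636455-48636646 and 1.4 kb upstream of the start, was at 1.32%. The body run with the most positions, 20 at chr17:48674112-48674247, averaged 77.8% ± 6.21 (SD, n = 23), with left 3 highest at 93.8% and the next library at 85.3%. The largest run of intermediate mean that was not this one, 19 positions at chr17:48655639-48655864, had 61.6% ± 3.30 (SD, n = 23). A low run lay 44.0 kb from the start, 12 positions at chr17:48681971-48682193, at 7.62% ± 3.27 (SD, n = 19), and all 12 position means were under 20%. At 47.3 kb was the run with the largest SD of all 59, 20.9 points: 3 positions at chr17:48685332-48685431 with levels from 3.00% in left 8 through a median of 38.0% to 69.3% in right 6 (n = 20). All 3 of its position means over monkeys lay between 30.2% and 42.7%, with none under 20% or over 80%, unlike most intermediate runs. Because levels differed this widely between monkeys, these means do not show intermediate levels within a monkey.

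CACNA1H (Cav3.2), a T-type gene on chromosome 16, was covered by 28 positions only, 11 and 16 of them in its 2 runs. Its body run, 11 positions at chr16:1217710-1217866 and 14.7 kb from the start, was low, at 12.2% ± 2.79 (SD, n = 20), from 8.64% in left 11 through a median of 11.7% to 17.5% in right 8. Its other run, 16 positions at chr16:1273424-1273530, lies in the last 3 kb of the window, past the gene's end by the window's padding, and was at 62.9% ± 3.75 (SD, n = 23). Values there may belong to a neighbouring gene.

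CACNA1I (Cav3.3), a T-type gene expressed mainly in brain, had 11 runs and 185 body positions, of which 83 averaged between 20% and 80%. The body run with the most positions, 51 at chr22:40082264-40082522 and 116 kb from the start, had 69.9% ± 4.41 (SD, n = 23), from 62.3% in right 12 through a median of 69.8% to 76.1% in left 3. A run of 28 positions at chr22:40042652-40042831 was at 31.3% ± 4.09 (SD, n = 23), and 20 of its 28 positions were intermediate. A pair of low runs lay near 92 kb and 94.7 kb: 17 positions at chr22:40057979-40058114 with 15.1% ± 8.61 (SD, n = 21) and 12 positions at chr22:40060724-40060863 with 13.9% ± 8.35 (SD, n = 18). Between them, 8 positions at chr22:40058336-40058435 averaged 63.2% ± 8.79 (SD, n = 21), the largest SD of the gene. In the 17-position run the levels ran from 4.59% in right 7 through a median of 13.5% to 32.3% in right 11, and here the extremes were not the libraries with many missing values.

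Across runs the median SD over monkeys was 3.76 points for the 52 member runs with values in at least 20 monkeys, against 3.26 for all 27604 such runs of the table. These medians are not matched for level: 37% of member positions averaged under 20%, against 60.9% of the table. SDs in the 7 low body runs ran from 2.79 to 9.23 points, while the 6 promoter runs under 2% had SDs from 0.518 to 1.09.

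None of the 6 genes held a position or run that was associated with the anxious temperament score after adjustment. Of 592 member positions with enough values and spread to be tested, 21 had an unadjusted p under 0.05 in the limma fit (3.55%), 11 with higher and 10 with lower methylation at higher scores. Of all 192151 tested positions 5991 did (3.12%), so the members' share was near the background. After Benjamini-Hochberg adjustment over all tested positions, 0 member positions were called, and 0% of all. By gene, CACNA1I had 1 higher and 6 lower of 134 tested, and CACNA1C 4 higher and 2 lower of 111. CACNA1B had 3 higher and 1 lower of 79, and CACNA1A 1 of each among 196. CACNA1G and CACNA1H had 1 higher each, of 54 and 18. Several of the lower CACNA1I positions shared a run, as described below. All but 1 of the 21 lay in gene bodies, 0 in the 45 promoter positions tested, and the exception in the CACNA1H flank. Promoter zones held only these 45 of the 592 tested positions and most of the rest were in bodies, so this placing is not read as a pattern.

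The smallest p belonged to a CACNA1A body position, chr19:13462543, 154 kb from the start. Its level ran from 78.0% through a median of 94.0% to 100% (n = 21). The 11 monkeys with a score below 0 had 86.0% to 100% and the 10 above 0 had 78.0% to 100%, so the groups overlapped. The limma slope was -6.90 ± 1.64 points per score unit (SE, unadjusted p = 0.000345, adjusted p = 1). Within the monkeys whose identifiers start with r the slope was -1.78 and within those starting with B -9.39. The positions on either side in the table averaged 2.35% and 0.429%, and the level of the 7-position run that holds all of these had a slope of -0.0608 ± 0.761.

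The other 4 positions with the smallest p were CACNA1B at chr9:141016024 and chr9:140917581 and CACNA1I at chr22:40082350 and chr22:40081866. The CACNA1B position at chr9:141016024 ran from 81.0% to 100% (median 95%, n = 21), with a slope of 4.98 ± 1.51 (SE). The CACNA1B position at chr9:140917581, in the long body run, ran from 0% to 43.0% (median 13.5%, n = 20), with a slope of -7.99 ± 2.87 (SE). These opposite directions stood within 1 gene. In CACNA1I, chr22:40082350 ran from 63.0% to 100% (median 89.0%, n = 23), with a slope of -7.53 ± 2.40 (SE), and chr22:40081866 from 33.0% to 100% (median 72%, n = 20), with a slope of -13.9 ± 4.95 (SE). Both CACNA1I positions were lower at higher scores, and so were chr22:40082353 and chr22:40082359, which lie within 9 bp of the first, with slopes of -5.13 ± 1.94 and -7.29 ± 2.72 (SE). Adjusted p was 1 for each of these positions by limma. The run of 51 positions that holds 3 of them had a slope of -1.34 ± 1.21 (SE, unadjusted p = 0.279).

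**Figure D4:**
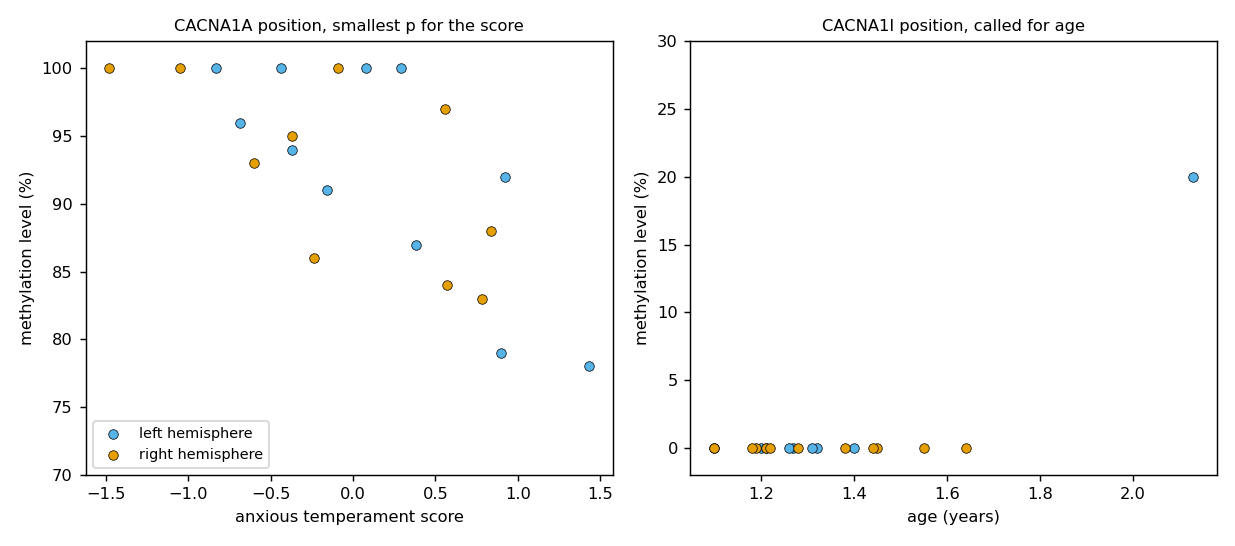
Left, methylation level (%) of the CACNA1A position with the smallest p for the score against the score; right, level of the CACNA1I position called for age against age in years; 1 point per monkey, blue left and orange right hemisphere, and the vertical axis of the left panel does not start at 0. The CACNA1A level runs from 78.0% to 100%, and in the CACNA1I panel left 1 at 20.0% is the single monkey above 0%.

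Of 47 member runs tested, 1 (2.13%) had an unadjusted p under 0.05 for the score, against 678 of 21020 runs (3.23%), and 0 passed adjustment, as in the table at large (0%). This run lies in CACNA1C at chr12:2559495-2559997, 480 kb from the upstream start, with 14 positions. Its level ran from 64.2% in right 1 through a median of 72.8% to 80.5% in left 9 (n = 23). The slope was -2.89 ± 1.20 points per score unit (SE, 95% interval -5.38 to -0.393, unadjusted p = 0.0252, adjusted p = 1 by limma). With each monkey left out in turn the slope ran from -3.82 to -2.41 and the unadjusted p passed 0.05 in 3 cases, without right 1, right 4 or left 11, reaching 0.0902 without right 4. With the plain mean of the values present it was -2.50 (p = 0.174). It was -5.87 in the r series and -0.0993 in the B series. In the right hemisphere the same run had 71.5% ± 4.66 (SD, n = 12) against 75.1% ± 3.83 in the left (SD, n = 11), a difference with score and age of -4.04 ± 1.56 points (SE, unadjusted p = 0.0172, adjusted p = 0.978 by limma).

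The next runs by p were the CACNA1H flank run, with a slope of 2.06 ± 1.05 (SE, unadjusted p = 0.0616 by limma), and the CACNA1A run of 3 positions at chr19:13465941-13465985, with -2.40 ± 1.49 (SE, p = 0.120). Then came CACNA1I at chr22:40081772-40081888, with -3.71 ± 2.38 (SE, p = 0.136), and CACNA1B at chr9:140870325-140870443, with -2.76 ± 1.84 (SE, p = 0.150). Without left 3 and right 9 the unadjusted p of the CACNA1H flank run was 0.0414 (slope 2.19) and that of the CACNA1A run 0.0226 (slope -3.08), and neither passed adjustment. The slopes of the 47 runs lay between -6.62 and 2.06, 23 of them above 0, and 31 intervals lay wholly within 5 points of 0 on both sides. For the other 16 runs the interval reached beyond 5 points in at least 1 direction.

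**Figure D5:**
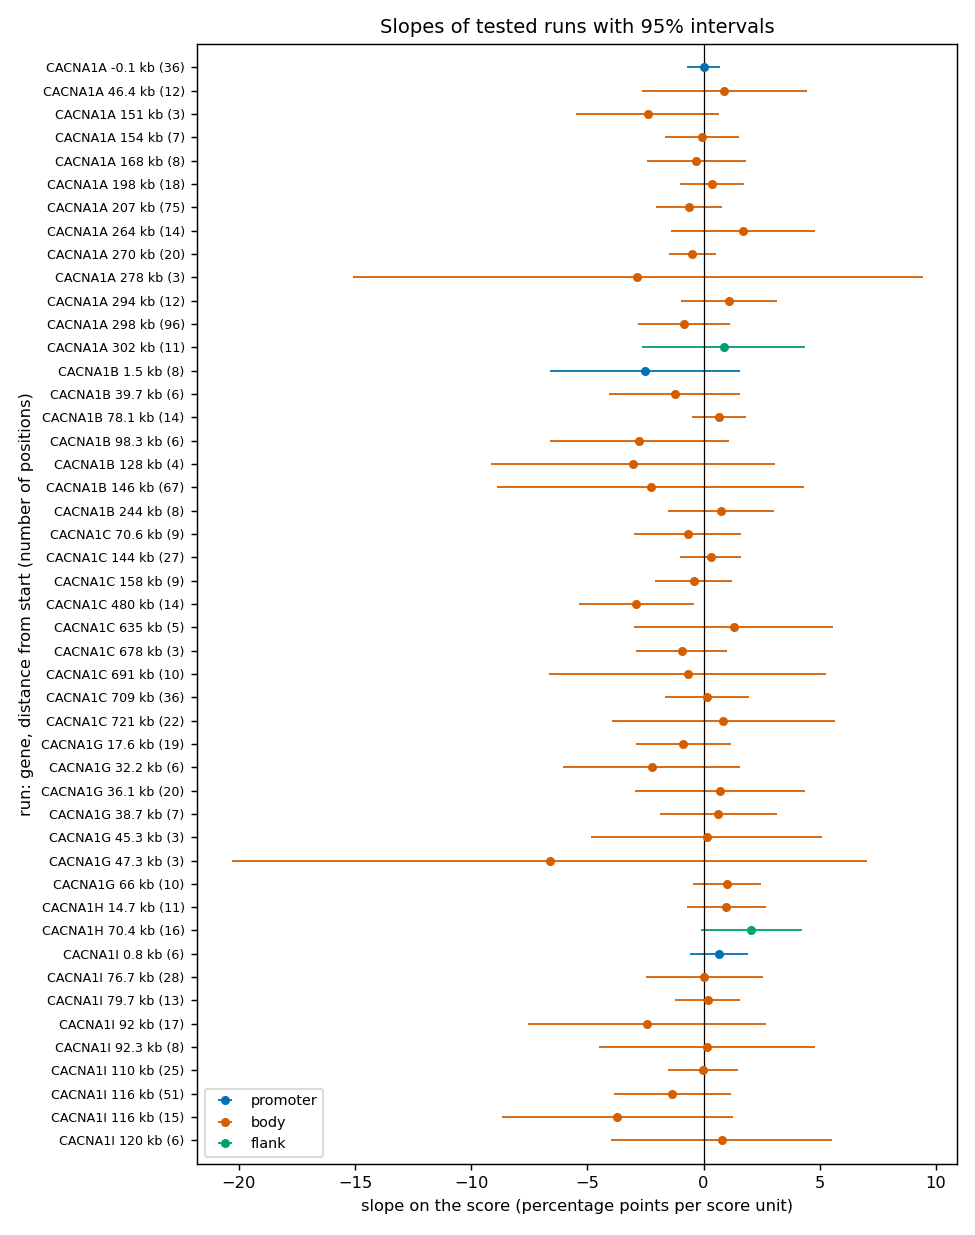
Slope of the methylation level on the score (percentage points per score unit, age as covariate) for each of the 47 tested member runs, ordered by gene and distance from the start (kb), with 95% intervals; the number of positions is in brackets, and blue, orange and green mark promoter zone, body and 3′ flank. In 46 of the 47 runs the interval includes 0, the CACNA1C run at 480 kb being the exception.

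No slope of a zone's level on the score had a permutation p under 0.05 (100000 resamples, 13 zones, unadjusted). The smallest p was that of the CACNA1H flank, which is the run above, at 2.06 points per unit (95% interval -0.103 to 4.22, permutation p = 0.0596). The CACNA1I body followed, at -0.918 points per unit (95% interval -1.93 to 0.0966, permutation p = 0.0739), with -0.349 in the r series and -1.34 in the B series. Without left 3 and right 9 its p was 0.0404 (slope -0.962), and with the plain mean 0.747 (slope -0.362). The body intervals of CACNA1A (-1.16 to 0.520), CACNA1C (-1.57 to 1.14) and CACNA1G (-1.87 to 1.57) all included 0 and lay within 2 points of it. That of CACNA1B was wider, from -4.91 to 2.22. Promoter-zone slopes of CACNA1A (0.0164) and CACNA1C (-0.0486) were small beside the SDs over monkeys.

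A single member position was called for age. At chr22:40081835 in CACNA1I, left 1, the oldest monkey at 2.13 years, had 20.0%, and the other 19 monkeys with a value had 0%. The limma slope was 15.4 ± 2.87 points per year (SE, n = 20, adjusted p = 0.0456), and without left 1 there was no such call. The call was also lost in most fits that kept left 1 and left out a single other monkey. In all, 20 of 592 member positions had an unadjusted p under 0.05 for age (8 higher and 12 lower with age), which is 3.38% against 4.06% of the table. Of all tested positions 0.0531% were called for age. The next positions were chr16:1217771 in CACNA1H, with a slope of 13.6 ± 4.67, where left 1 was again highest at 21.0%, and chr19:13409795 in CACNA1A, with -19.4 ± 6.95, where left 1 was lowest at 64.0% (adjusted p = 0.862 and 0.912 by limma).

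In runs, 3 of 47 members (6.38%) had an unadjusted p under 0.05 for age, against 5.55% of the table, and 0 were called, with 0.0666% called in the table. All 3 slopes were negative: CACNA1A at chr19:13409730-13410051 (-6.25 ± 2.28 points per year), CACNA1I at chr22:40058336-40058435 (-19.3 ± 7.48) and CACNA1B at chr9:140900311-140900411 (-23.5 ± 9.67). Left 1 was the lowest library in each, at 68.6%, 43.5% and 54.2%, and the second lowest had 73.4%, 48.5% and 55.2%. Without left 1 the slopes were -0.412 in CACNA1A, -9.22 in CACNA1I and -12.2 in CACNA1B, with unadjusted p of 0.909, 0.470 and 0.458 by limma.

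Hemispheres were compared between monkeys, since each gave 1 side. For 22 of 592 member positions (3.72%, against 3.48% of the table) the unadjusted p was under 0.05, 15 higher and 7 lower on the right, and 0 passed adjustment (0% of the table). Among runs 3 of 47 (6.38%, against 3.29%) had such a p and 0 passed. Besides the CACNA1C run, CACNA1A at chr19:13323247-13323357 had 89.1% ± 2.93 on the right and 85.9% ± 3.18 on the left (SD, n = 11 each), a difference of 3.34 ± 1.32 points with score and age in the fit (SE, unadjusted p = 0.0192, adjusted p = 0.978 by limma). CACNA1I at chr22:40081772-40081888 had a right minus left difference of -7.65 ± 3.35 points (SE, unadjusted p = 0.0346, adjusted p = 0.978 by limma). Left and right overlapped in all 3 runs. The score slope differed by hemisphere with an unadjusted p under 0.05 in 1 of 47 runs, the CACNA1A flank run at chr19:13314899-13315101 (7.62 ± 2.93 points per unit more on the right, p = 0.0175 by limma), against 3.96% of the table, and 0 runs passed adjustment.

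The other subunit genes of these channels were covered by 449 positions in windows drawn in the same way. Promoter zones of CACNA1D, CACNA1E, CACNA2D1, CACNA2D3, CACNB1 and CACNB4 lay between 0.879% and 5.79%, like those of the members with an island. Bodies ranged from 2.12% in CACNA1E (4 positions) and 5.49% in CACNB3 (73 positions) to 58.0% in CACNA1S and 59.3% in CACNB2. Of 207 tested positions 3 (1.45%, against 3.12% of the table) had an unadjusted p under 0.05 for the score, 1 higher and 2 lower. For age 13 did (6.28%, against 4.06%), 11 higher and 2 lower, and for hemisphere 7 (3.38%, against 3.48%), all lower on the right, and 0 passed adjustment by limma. The median score slope was 0.0110 points per unit there, 0.0225 over the member positions and 0.0912 over all tested positions.

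Across the 23 monkeys the body level of each member was set beside those of 15 other subunit genes, as a description only, since all values of a monkey come from 1 library. With all libraries CACNA1I was most like CACNB1, a beta subunit gene (r = 0.572), and then CACNA1S (r = 0.493). CACNA1B was most like CACNA2D2 (r = 0.485) and CACNA1C (r = 0.278), and CACNA1G like CACNB2 (r = 0.485) and CACNB4 (r = 0.478). CACNA1A, CACNA1C and CACNA1H each had CACNA1G as the most alike gene, with r of 0.332, 0.403 and 0.313, the last over 22 monkeys. Their second genes were CACNA1D (r = 0.266), CACNB2 (r = 0.310) and CACNB3 (r = 0.287). Several of these pairs moved without left 3 and right 9. Over the other 21 monkeys CACNA1I and CACNA1G were each other's most alike gene (r = 0.549), and CACNA1C was most like CACNA1I (r = 0.415). CACNA1B and CACNA2D2 then had r = 0.619, CACNA1I and CACNA1S 0.541, and CACNA1I and CACNB1 0.482. Left 4, the highest library of the CACNA1B body at 59.5%, was kept here, and r without it was not computed. The pair of CACNA1B and CACNA1C fell to 0.0884, that of CACNA1A and CACNA1D to 0.103, and that of CACNA1C and CACNB2 to 0.187.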

How the data were processed

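The authors deposited 1 table of methylation levels as a fraction from 0 to 1 for 23 monkeys, here multiplied by 100. Per the submitters' processing notes, Bismark 0.11.1 and build hg19 were used. How coverage and strands were handled upstream is not stated in the labels, and without read counts a coverage minimum could not be varied. The members, zones and gene lists were chosen with earlier results of these data known. Windows of the other subunit genes, strands and starts came from general knowledge of hg19, not from an annotation, and no sequence was used.

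Testing in the main fits required a value in 20 or more of the 23 monkeys. Fits that left monkeys out required a value in all but 3 of those kept. Levels had to span 10 points or more for positions (192151 qualified) and 5 or more for runs (21020 of 32706). Linear models were solved row by row with the variance moderation of limma 3.58.1 under R 4.3.3 (empirical Bayes, trend on the mean level; score and age, then hemisphere, then score by hemisphere), leaving out missing values, with Benjamini-Hochberg adjustment over the whole table at 0.05. Of the 59 member runs, 7 had too few monkeys and 5 too small a range. On simulated data the row-wise solution was checked against limma's own fit and recovered slopes that had been added. Zone levels were compared by permutation with numpy 2.4.6 in Python 3.11.15. Monkeys are the replicates, and p-values measure the spread between them. For each gene the text names the promoter run and body run with the most positions, the low run and the intermediate run with the most positions, and the run with the largest SD. Over all members it names the 5 positions and 5 runs with the smallest p for the score, 3 runs each for age and hemisphere, and the 2 genes most alike in body level. A few neighbours of these were added after their values were seen. Identifiers start with r in 12 monkeys and with B in 11, and the labels do not explain the letters.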

Additional observations from a re-analysis of the deposited data

How the results depend on the processing

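Counts below are members with an unadjusted p under 0.05 unless adjusted calls are named. Without left 3 and right 9, the count of positions rose to 33 for the score (4.72% of 699 tested, against 4.6% of all positions). For age it rose to 51 (7.30%, against 6.04%). More member positions were tested there, 699 against 592 in the main fit. Score runs rose to 3 of 51 (5.88%, against 4.6% of all runs) and score-by-hemisphere runs to 2 of 51 (3.92%, against 5.71%). The plain mean gave 0 runs for the score and 0 for score by hemisphere, against 3.2% and 3.56% of all runs. Without left 1 no run had such a p for age (0, against 3.76% of all runs). The adjusted call for age became 0 on the logit and arcsine scales, with a range of at least 20 points, with no variance trend, with the identifier series added and without left 1. It also became 0 in most fits that left out a single other monkey. A range of at least 20 points gave 13 positions for hemisphere (2.88%, against 3.5% of all positions). With each monkey left out in turn, counts ran from 16 to 43 for age positions (adjusted, 0 to 1), 0 to 3 for score runs, 0 to 5 for age runs, 2 to 5 for hemisphere runs and 0 to 2 for score by hemisphere. Without left 3 the score runs were 6% (3.59% of all runs), the age runs 10% (6.19%) and score by hemisphere 4% (4.47%). Hemisphere runs reached 10.6% without right 1 (3.3% of all runs). The lowest shares were 0% for the score without right 4 (3.07% of all runs) and 4.17% for hemisphere without right 7 (3.25%). The highest count of age positions, 43 (6.8%, against 5.27% of all positions), came without right 9. It was 39 without left 3 and 37 without left 4 (5.61% and 5.36%, against 4.69% and 4.28% of all positions). The promoter slope on the score turned to 0.0459 in CACNA1B with a zone of 1 kb either side and to -0.00704 in CACNA1A without left 3 and right 9. The body of CACNA1I minus that of CACNA1G turned to -0.173 points with the plain mean and to -3.45 without low positions in methylated surroundings. Body minus promoter kept its direction and its p under 0.05 in the 19 refits run. Leaving out low positions in methylated surroundings was not among those refits. The CACNA1I promoter zone had 3 of its 6 positions under 20%, and its direction under that setting was not tested. The settings that kept an adjusted call called the same CACNA1I position for age, and none gave another. The cause of these shifts was not tested. No paired analysis was possible because no animal contributed both hemispheres, and replicate numbers are names. Unknown depth limits every single-position value.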
